A study of Mus musculus with 6 samples.

Results

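The ISG+ dendritic cells (DC) of a mouse tumor were compared between hosts with and without lymphocytes, across all expressed genes. The comparison used 4 of the 6 bulk RNA-sequencing libraries of the series, chosen by their labels: 2 libraries of ISG+ DC from C57BL/6 hosts labelled WT (replicates 1 and 2) and 2 from C57BL/6 hosts labelled Rag2-/- (replicates 2 and 3). The remaining 2 libraries, of CD103+ DC1 from Rag2-/- hosts (replicates 2 and 3), served as a reference level and as a share of the spread estimate. All hosts carried MC57-SIY, a mouse fibrosarcoma line with the model peptide antigen SIY, under the skin of the flank for 7 days, and no host was otherwise treated. Tumors were pooled before sorting, the sources used here state neither age and sex of the mice nor sort gates, and 2 independent experiments were done for each kind of sample. A library is thus a pool of tumors and not a single mouse. WT and Rag2-/- are the names in the labels, and every direction below rests on them.

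Rag2 is needed to assemble antigen receptor genes, and without it T and B cells do not mature, while natural killer (NK) and myeloid cells remain. ISG usually stands for interferon-stimulated gene, and the series title describes CD11b+ conventional DC activated by type I interferon. Lymphocytes can act on tumor myeloid cells through cytokines such as interferon-gamma, which is known to induce nitric oxide synthase and PD-L1. Myeloid cells also adjust arginine use, cholesterol synthesis and export, iron storage and glycolysis to their surroundings.

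Itgam, which encodes CD11b, was at 1322 and 1435 CPM (counts scaled to the library total by TMM factors) in the 2 WT libraries and at 1150 and 1376 in the 2 Rag2-/- libraries. Its level was 84.8 and 73.7 CPM in CD103+ DC1. Sirpa, another marker of CD11b+ DC, was at 1001 and 1065 CPM in WT and at 656 and 691 in Rag2-/- ISG+ DC, against 42.1 and 6.85 in CD103+ DC1. Of 18 such markers tested, 10 had all WT values under all Rag2-/- values and 2 the reverse, against 23.1% and 21.4% of all genes tested. Their median log2 change was -0.54. Among the 10, Clec10a was at 80.4 and 87.3 CPM against 112 and 143, and Cd209a at 50.6 and 87.3 against 160 and 110; neither passed the test used below. The list's summed level did not set the cell types apart, at 4828 and 5062 CPM in WT, 4782 and 5172 in Rag2-/- ISG+ DC and 4758 and 5555 in CD103+ DC1. The 19 CD103+ DC1 markers summed to 1719 and 1768 CPM in WT and 1866 and 2013 in Rag2-/- ISG+ DC, against 13410 and 9251 in CD103+ DC1. Xcr1 was between 3.04 and 9.04 CPM in ISG+ DC against 316 and 231 in CD103+ DC1. Irf8 was not low, at 199 and 219 CPM in WT and 135 and 179 in Rag2-/- ISG+ DC, against 1668 and 723. Batf3 was at 16.5 and 16.3 CPM in WT and 8.88 and 10.3 in Rag2-/- ISG+ DC, against 31.6 and 17.3. Of the DC-wide markers, H2-Ab1 was between 5350 and 6018 CPM in all 4 ISG+ DC libraries, while Flt3 and Zbtb46 were lower in WT than in Rag2-/- hosts, as described below. Itgax was also lower in WT without overlap, at 321 and 337 CPM against 493 and 526, and did not pass the test used below. Single monocyte and macrophage genes differed in level and direction. Csf1r was at 1243 and 1121 CPM in WT and at 436 and 620 in Rag2-/- ISG+ DC, and Mertk at 86.2 and 42.1 against 11 and 18. Emr1 was at 129 and 220 CPM against 48.9 and 41.5, and Cd14 at 258 and 340 against 62.1 and 105. All of these were higher in WT without overlap. Fcgr1 was lower in WT without overlap, at 299 and 320 CPM against 354 and 419, as was Ly6c2, at 12.5 and 11.2 against 38 and 28.7. The summed level of 35 macrophage and monocyte markers was 16601 and 18556 CPM in WT against 7220 and 10042.5 in Rag2-/- ISG+ DC, so the groups did not overlap. Over this list 1 gene (Apoe) rose in WT hosts by the test used below. Of the 35, 20 had all WT values above all Rag2-/- values and 7 the reverse, against 21.4% and 23.1% of all genes tested. In bulk samples, fewer cells of a type and less RNA per cell cannot be told apart, and the part of these genes in the results below was not tested.

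Defining markers of B and T cells were low in both groups. Ms4a1 had no count in any library, Cd3e was at 0.357 and 0.499 CPM in WT and 0 in Rag2-/- ISG+ DC, and Cd3g was at 6.26 and 0 in WT and 0 in both Rag2-/- libraries. The sum of 27 T cell markers was 107 and 71.6 CPM in WT against 59.5 and 33.3 in Rag2-/- ISG+ DC, without overlap. Of 17 tested, 8 had all WT values above all Rag2-/- values and 2 the reverse, against 21.4% and 23.1% of all genes tested. Their median log2 change was 1.56, and none passed the test used below. Cd4 and Cd8a overlapped between hosts, Cd4 at 7.95 and 13.7 CPM against 20.6 and 4.08, and Cd8a at 2.41 and 0 against 7.74 and 1.53. The 15 NK cell markers summed to 57.3 and 24.7 CPM in WT against 98.4 and 92 in Rag2-/- ISG+ DC, without overlap. Most of that sum in Rag2-/- ISG+ DC was Klri2, a receptor of NK cells, at 83.7 and 88.1 CPM against 20.3 and 16.1 in WT; Klrb1c was at 0 in all 6 libraries and Ncr1 at 0.179 CPM or less in ISG+ DC. Of the defining neutrophil genes, S100a8 was at 0 in all 6 libraries and S100a9 at 4.11 and 0 CPM in WT and 0 in Rag2-/- ISG+ DC, while the sum of 18 neutrophil markers was 212 and 238 CPM against 90 and 88.2. That list holds Csf3r, which passed the test and is described below; without it the sum was 86 and 104 CPM in WT against 67.5 and 75.9 in Rag2-/- ISG+ DC. The 26 fibroblast and tumor matrix genes summed to 1073 and 106 CPM in WT and to 1625 and 941 in Rag2-/- ISG+ DC, so WT replicate 2 was the low library there.

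**Figure D1:**
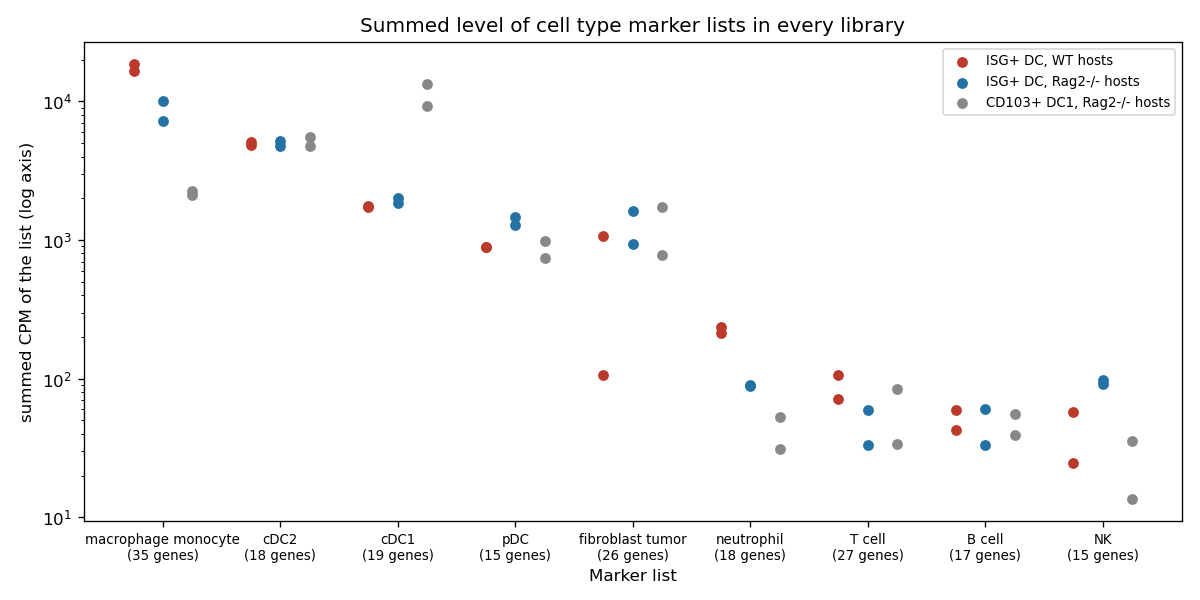
Summed CPM (log axis) of 9 cell type marker lists, with 1 point per library. The macrophage and monocyte list was higher in both WT ISG+ DC libraries than in both Rag2-/- libraries, and the T, B and NK cell lists stayed at or under 107 CPM in every library.

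Total estimated counts were between 10455861 and 15368616 in the 4 ISG+ DC libraries, and 45S ribosomal RNA took 5.75% to 7.31% of them. The Spearman correlation over genes was 0.921 within WT and 0.934 within Rag2-/- ISG+ DC, against 0.887 to 0.902 between the hosts. Rag2 itself had 0 counts in both WT libraries and 40 and 2 in the Rag2-/- ISG+ DC libraries (edgeR adjusted p = 0.588). The CD103+ DC1 libraries, also from Rag2-/- hosts, had 39 and 11. Rag1 had none in any library. The sources used here do not say what the allele removes, so these low counts check the labels in neither direction.

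The comparison asked how a lymphocyte-replete host changes ISG+ DC. WT ISG+ DC had far more RNA for the arginine enzymes Arg1 and Nos2, complement C3, the PD-1 ligands, Vegfa, the cholesterol exporter Abca1, heme oxygenase and ferritin, and far less for enzymes of cholesterol synthesis. Of 13223 genes tested, 73 passed edgeR's quasi-likelihood test at an adjusted p of 0.05, 38 higher and 35 lower in WT hosts. These are 0.552% of the genes tested (0.287% higher and 0.265% lower). Without adjustment, 1307 genes had a p under 0.05. DESeq2 called 545 of the 13223 genes and limma-voom 324. These totals are the background for the counts of single lists below. The values of the groups did not overlap for 44.5% of all genes tested, 21.4% higher and 23.1% lower in WT. All 73 genes kept their direction in every alternative fit in which they were tested. Their calls depended on single libraries: 21 of the 73 still passed without Rag2-/- ISG+ DC replicate 2, 46 without Rag2-/- replicate 3, 48 without WT replicate 2 and 62 without WT replicate 1. The count of genes passing grew to 444 (275 higher, 169 lower) when the 4 ISG+ DC libraries were fitted alone, 72 of the 73 among them.

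**Figure D2:**
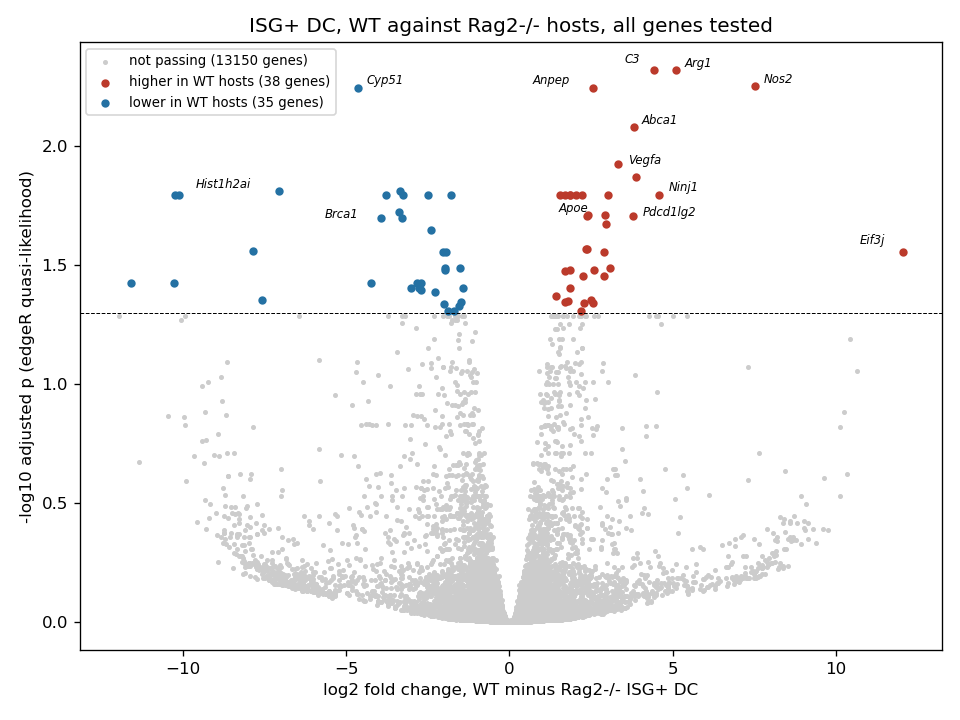
Log2 fold change between WT and Rag2-/- ISG+ DC (x axis) against -log10 of the edgeR adjusted p (y axis) for 13223 genes, 1 point each, with the dashed line at an adjusted p of 0.05. The 38 genes higher and 35 lower in WT hosts lie above the line, with C3, Arg1 and Nos2 at the top right and Cyp51 at the top left; points beyond about 8 on the x axis have a group at or near 0 and their fitted sizes are not measured.

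Arginine is broken down by arginase and by nitric oxide synthase, which compete for it. Arg1, which encodes arginase 1, was at 2095 and 3097 CPM in WT and at 60.5 and 90.7 CPM in Rag2-/- ISG+ DC. Both WT libraries lay far above both Rag2-/- libraries, and CD103+ DC1 was lower still at 21.7 and 8.56 CPM. The rise was 34.3-fold, a log2 change of 5.10 ± 0.46 (SE; edgeR adjusted p = 0.00477). Nos2, the inducible nitric oxide synthase, was at 225 and 481 CPM in WT and at 0.881 and 2.99 CPM in Rag2-/- ISG+ DC, where it had 14 and 41 counts. CD103+ DC1 had 0 and 2 counts. Its log2 change was 7.52 ± 0.76 (edgeR adjusted p = 0.00557), or 6.86 without WT replicate 2, 6.88 without Rag2-/- replicate 2 and 8.63 without Rag2-/- replicate 3. The 2 enzymes were therefore both high in the same 2 libraries. They were the 2 of 20 arginine genes tested that passed (median log2 change 0.20, against -0.03 over all genes tested). The arginine transporter Slc7a2 was at 222 and 290 CPM in WT and 3.59 and 18.6 in Rag2-/- ISG+ DC, groups apart but not passing over all 6 libraries (log2 change 4.53, edgeR adjusted p = 0.108). Ass1 and Asl, which rebuild arginine from citrulline, had log2 changes of 0.36 and 0.05, and Odc1, the first enzyme of polyamine synthesis, one of -0.20; none of the 3 passed.

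C3 is the central protein of complement and can be made by myeloid cells at the site of inflammation. It was at 1167 and 1035 CPM in WT and at 48.3 and 53.6 CPM in Rag2-/- ISG+ DC. The WT libraries were higher without overlap, and CD103+ DC1 was lowest at 8.18 and 21.2 CPM. C3 rose 21.6-fold (log2 change 4.43 ± 0.42, edgeR adjusted p = 0.00477) and kept its call with any 1 library left out. It was the 1 of 18 complement genes tested that passed. Of the 18, 10 had all WT values above all Rag2-/- values and 1 the reverse, against 21.4% and 23.1% of all genes tested. C3ar1, the receptor for the C3a fragment, was at 431 and 430 CPM against 110 and 197 (log2 change 1.49, edgeR adjusted p = 0.0728). The 3 chains of C1q, which macrophages make in quantity, had log2 changes of 1.38 to 1.43 and did not pass. Properdin (Cfp), which stabilizes the alternative pathway convertase, was the gene on the other side, at 294 and 266 CPM in WT and 382 and 468 in Rag2-/- ISG+ DC (edgeR adjusted p = 0.426). With the ISG+ DC libraries fitted alone 4 complement genes passed, all higher.

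The ligands of PD-1, which restrain T cells, were the 2 of 25 T cell ligands and checkpoint genes tested that passed. Cd274, which encodes PD-L1, was at 498 and 528 CPM in WT and at 117 and 130 CPM in Rag2-/- ISG+ DC. The WT level was the higher one in both libraries, while the Rag2-/- values lay between those of the 2 CD103+ DC1 libraries, 102 and 135 CPM. Cd274 rose 4.15-fold (log2 change 2.05 ± 0.27, edgeR adjusted p = 0.0159). Pdcd1lg2, which encodes PD-L2, was at 133 and 159 CPM in WT against 10.4 and 10.9 in Rag2-/- ISG+ DC. It rose 13.7-fold (log2 change 3.78 ± 0.56, edgeR adjusted p = 0.0196). Without Rag2-/- replicate 2 both lost their calls, at 1.98 and 3.74. Havcr2, which encodes the inhibitory receptor TIM-3, was at 106 and 70.6 CPM against 33.5 and 20.1 (edgeR adjusted p = 0.0849), and Btla, an inhibitory receptor of the same family as CD28, at 0.536 and 3.19 CPM against 19.1 and 15.2 (edgeR adjusted p = 0.0516). The list's median log2 change was 0.60, and 5 of its genes were higher and 2 lower with the ISG+ DC libraries alone.

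**Figure D3:**
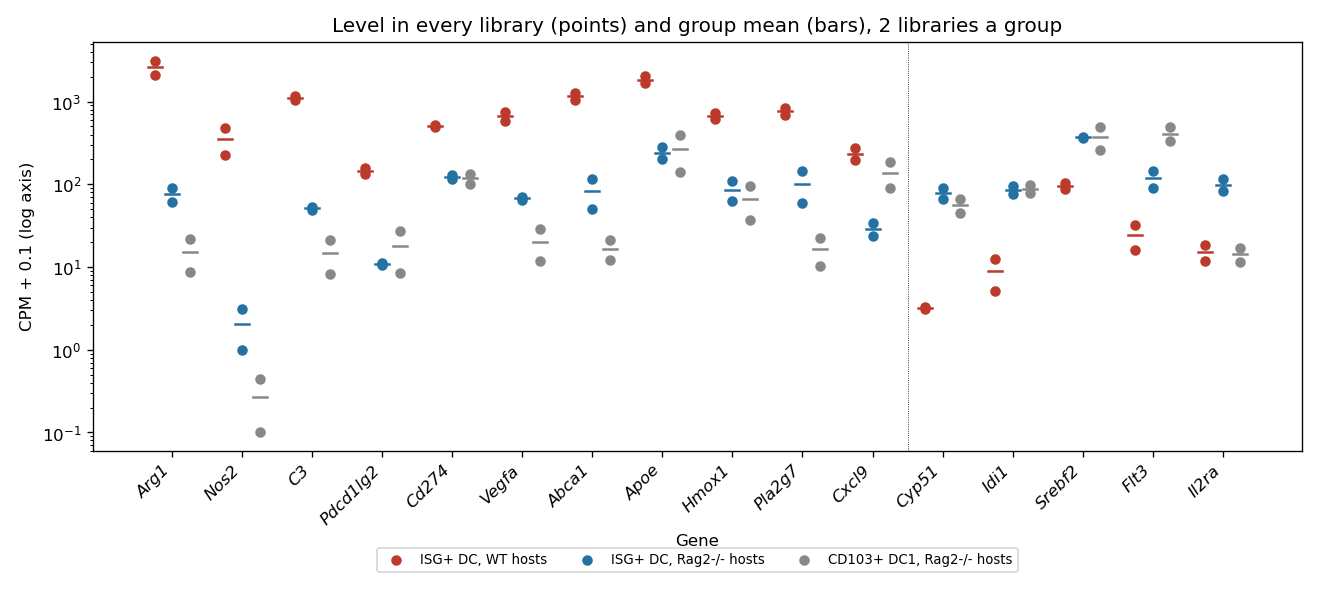
CPM + 0.1 (log axis) of 16 genes in every library (points) with the group mean (bars), 2 libraries a group. Genes left of the dotted line were higher and those right of it lower in WT than in Rag2-/- ISG+ DC, with no overlap between the 2 groups for any of them.

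Cholesterol is made from acetyl-CoA by a chain of enzymes under the control of the transcription factor SREBP2, which is active when sterols in the cell are low. Of 24 genes of this pathway tested, 4 fell in WT hosts, Cyp51, Idi1 and Srebf2 among them, and none rose. Cyp51, which removes a methyl group from lanosterol, was at 3.04 and 3.19 CPM in WT and at 65.7 and 89.6 CPM in Rag2-/- ISG+ DC. CD103+ DC1 had 66.8 and 44.9 CPM, so the WT libraries were the low ones of all 6. Cyp51 fell by 4.63 ± 0.49 on the log2 scale, to a level 24.8-fold lower (edgeR adjusted p = 0.00567). Idi1, which makes the isoprenoid precursor dimethylallyl diphosphate, was at 12.4 and 5.09 CPM against 75.7 and 96.3 and fell by 3.29 ± 0.49 (edgeR adjusted p = 0.02), or -4.08 without WT replicate 1. Srebf2, which encodes SREBP2 itself, was at 104 and 86.8 CPM in WT and at 367 and 378 CPM in Rag2-/- ISG+ DC. Again both WT libraries lay under all others, since CD103+ DC1 had 486 and 256 CPM. Srebf2 fell by 1.96 ± 0.33 (edgeR adjusted p = 0.0329), and lost its call without WT replicate 2 (-1.84), Rag2-/- replicate 2 (-1.98) or Rag2-/- replicate 3 (-1.94).

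Printed here are the promoters of Cyp51, Idi1 and Srebf2 from the RefSeq promoter table (assembly GRCm38.p6, not the build of the counts), shown as the genes of the pathway that were described with their calls. Each is the 250 bases before the annotated start, 5′ to 3′ on the strand of the gene. Capitals mark CCAAT, the box bound by NF-Y, or its reverse complement ATTGG, and ATCACNNCA, a shortened and looser form of the sterol response element. The first lies at chr5:4104698-4104947 (minus strand), the second at chr13:8885356-8885605 (plus strand) and the third at chr15:82147019-82147268 (plus strand).
Cyp51: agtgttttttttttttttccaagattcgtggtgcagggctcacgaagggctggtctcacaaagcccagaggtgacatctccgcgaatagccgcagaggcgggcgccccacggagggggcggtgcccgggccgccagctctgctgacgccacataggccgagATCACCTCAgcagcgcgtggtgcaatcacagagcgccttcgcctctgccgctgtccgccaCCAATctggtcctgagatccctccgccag
Idi1: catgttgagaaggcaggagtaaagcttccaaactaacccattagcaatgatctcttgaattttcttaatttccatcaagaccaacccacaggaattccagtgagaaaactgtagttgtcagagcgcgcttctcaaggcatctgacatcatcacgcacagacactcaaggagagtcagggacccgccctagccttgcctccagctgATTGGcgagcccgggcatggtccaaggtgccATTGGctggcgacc
Srebf2: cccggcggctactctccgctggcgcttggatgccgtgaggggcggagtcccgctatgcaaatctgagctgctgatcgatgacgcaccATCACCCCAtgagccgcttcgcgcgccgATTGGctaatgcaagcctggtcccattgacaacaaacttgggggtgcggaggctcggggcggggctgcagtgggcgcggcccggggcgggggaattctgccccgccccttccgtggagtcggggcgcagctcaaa
Promoters were found for 17 of the 24 pathway genes, with Fdps and Sqle, described below, not among them. CCAAT was present, on either strand, in 15 of the 17 genes (88.2%) and in 37.5% of all 27025 genes of the table, counting a gene once for any of its start sites. The fuller sterol element TCACNCCAC was in none of the 17 windows and in 1.22% of all genes, which says only that these letters are not there. The shortened ATCACNNCA, chosen after the sequences were seen, was in 3 of the 17 (17.6%) and in 2.64% of all genes; in Sc4mol it overlapped a CCAAT box. These matches are descriptions of sequence and no test of binding.

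Most of the pathway lay on the same side. Of the 24 genes, 18 had all WT values under all Rag2-/- values and none the reverse, where all genes tested had 23.1% and 21.4%. The median log2 change was -1.54. Fdps was at 15.1 and 4.19 CPM against 61.8 and 61.9 (edgeR adjusted p = 0.0821), and Sqle, the squalene epoxidase, at 0.447 and 5.09 against 27.3 and 61.8 (edgeR adjusted p = 0.0913). The other 6 overlapped: Acat2, Mvk, Mvd, Tm7sf2, Ebp and Scap. The log2 change was above 0 for Tm7sf2, in few counts at 3.04 and 1.5 CPM against 2.33 and 0, and for Ebp, at 23.9 and 27.4 CPM against 25.4 and 19.9. Scap, the SREBP escort protein, was at 38 and 38.9 against 56.8 and 24.8. The number of genes passing ran from 3 (without either Rag2-/- ISG+ DC library) to 8 (without WT replicate 1) and 10 (without CD103+ DC1 replicate 3), and was 7 with the ISG+ DC libraries alone; none of these fits called a rise.

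Genes of cholesterol export, many of them targets of the sterol-sensing LXR receptors, lay on the opposite side. Abca1, the exporter of cholesterol to apolipoprotein A-I, was at 1053 and 1268 CPM in WT and at 50 and 116 CPM in Rag2-/- ISG+ DC. CD103+ DC1 had 21 and 12.2 CPM. Abca1 rose 14-fold (log2 change 3.81 ± 0.43, edgeR adjusted p = 0.00829), or by 4.53 without Rag2-/- replicate 3. Apoe, a cholesterol carrier also used as a macrophage marker, was at 2032 and 1656 CPM against 203 and 281 and rose 7.63-fold (log2 change 2.93 ± 0.43, edgeR adjusted p = 0.0194), a call lost without Rag2-/- replicate 2 (2.72). These were the 2 of 19 genes that passed. All WT values lay above all Rag2-/- values for 16 of the 19 and below them for none, against 21.4% and 23.1% of all genes tested. The list's median log2 change was 1.42. Abcg1, the exporter to HDL, was at 408 and 470 CPM against 115 and 152 (edgeR adjusted p = 0.132). Nceh1, which frees cholesterol from its esters, was at 72.1 and 81.6 CPM against 14.9 and 10.8 (edgeR adjusted p = 0.0516), and Mylip, which marks the LDL receptor for breakdown, at 66.1 and 135 against 30.8 and 14.9 (edgeR adjusted p = 0.102). Fitted alone, the ISG+ DC libraries gave 12 rises among the 19, and with 1 library left out 1 (without Rag2-/- replicate 2) to 14 (without CD103+ DC1 replicate 3) passed.

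**Figure D4:**
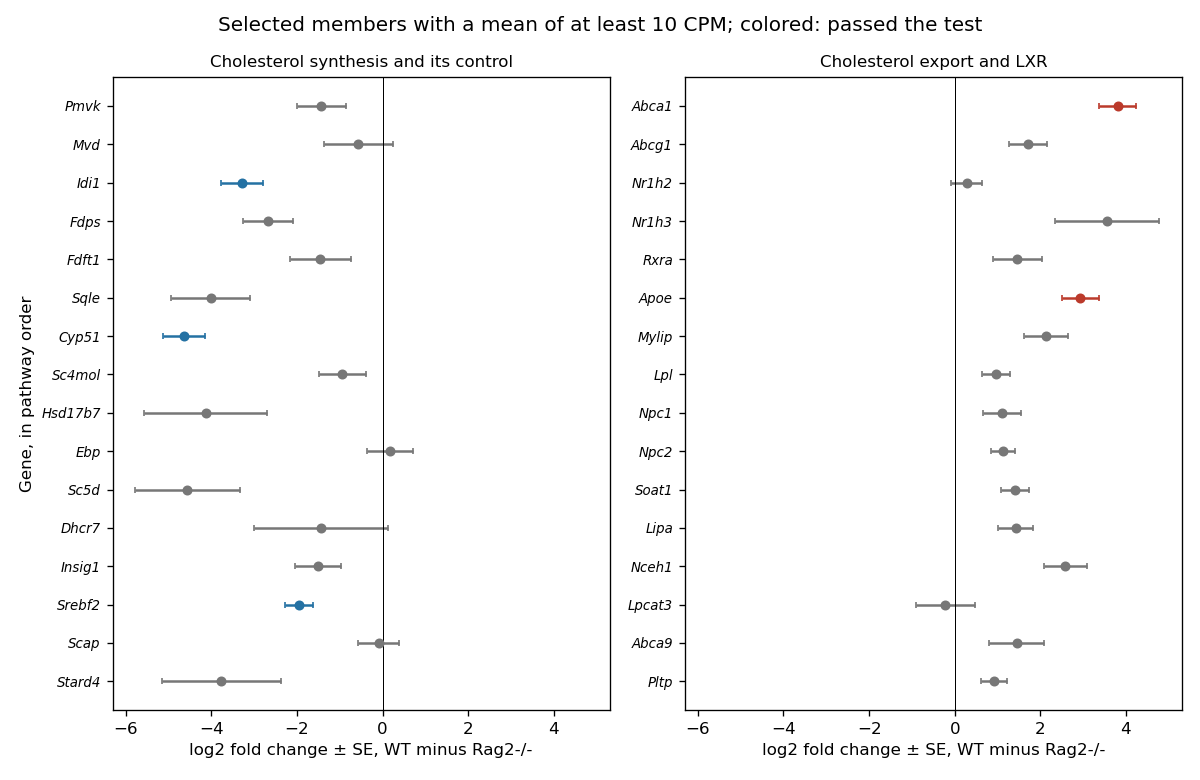
Log2 fold change between WT and Rag2-/- ISG+ DC with its SE for selected genes of cholesterol synthesis (left) and export (right) with a mean of at least 10 CPM in ISG+ DC; colored points passed the edgeR test. The synthesis genes shown, other than Ebp, lay below 0, down to -4.63 for Cyp51, and export genes other than Lpcat3 above it, up to 3.81 for Abca1.

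Among 32 genes of fatty acid metabolism and lipid droplets none passed by edgeR (9 at an unadjusted p under 0.05, and 6 each by DESeq2, by limma-voom and with the ISG+ DC libraries alone). Fasn, the fatty acid synthase, was at 40.9 and 14.2 CPM in WT and 110 and 152 in Rag2-/- ISG+ DC, while Plin2, the coat of lipid droplets, was at 392 and 594 against 86.9 and 119 (edgeR adjusted p = 0.093 and 0.103). The scavenger receptor Cd36 was at 194 and 291 CPM against 28.6 and 75.5 (edgeR adjusted p = 0.0555).

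Among iron and heme genes, 3 of the storage and breakdown steps rose. Hmox1, which opens the heme ring and frees its iron, was at 611 and 733 CPM in WT and at 62.4 and 109 CPM in Rag2-/- ISG+ DC. It rose 7.82-fold (log2 change 2.97 ± 0.45, edgeR adjusted p = 0.0212). The ferritin heavy chain Fth1, which stores iron, was at 2755 and 3280 CPM against 839 and 1021, and the light chain Ftl1 at 2549 and 3049 against 861 and 1038. In each of the 3 genes both WT libraries lay above both Rag2-/- libraries. Fth1 rose 3.24-fold and Ftl1 2.95-fold (edgeR adjusted p = 0.0159 for both), though ferritin genes have processed copies in the genome that can share their reads. Without Rag2-/- replicate 2 all 3 lost their calls (2.62 for Hmox1, 1.56 for Fth1 and 1.43 for Ftl1), as did Ftl1 without WT replicate 2 (1.42). These were the 3 of 24 iron and heme genes that passed, with a list median of 0.29. Of the 24, 9 had all WT values above all Rag2-/- values, 2 the reverse and 13 overlapped, where all genes tested had 21.4% above and 23.1% below. Blvrb, which reduces biliverdin, was at 53.4 and 42.6 CPM against 8.88 and 10.4 (edgeR adjusted p = 0.126), and Slc11a1, the phagosomal metal exporter, at 158 and 181 against 45.9 and 37.9 (edgeR adjusted p = 0.0809). The uptake receptor Tfrc was at 17.4 and 22.7 CPM against 34 and 27.9 and did not pass (edgeR adjusted p = 0.82).

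Of 24 redox genes under NRF2, the regulator of the antioxidant response, none passed by edgeR (13 at an unadjusted p under 0.05, 6 by DESeq2, 4 by limma-voom and 5 with the ISG+ DC libraries alone). All WT values were above all Rag2-/- values for 17 of them and below for 2, against 21.4% and 23.1% of all genes tested. Slc7a11, which imports cystine for glutathione, was at 116 and 132 CPM against 15.4 and 33.1 (edgeR adjusted p = 0.0516), and the peroxiredoxin Prdx5 at 163 and 186 against 49.3 and 63.6 (edgeR adjusted p = 0.0581).

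Genes of the hypoxia response rose in part. Vegfa, the growth factor of blood vessels, was at 590 and 757 CPM in WT and at 65.4 and 69.7 CPM in Rag2-/- ISG+ DC. Both WT libraries were about an order of magnitude above the others, with CD103+ DC1 at 28.4 and 11.8 CPM. Vegfa rose 9.97-fold (log2 change 3.32 ± 0.40, edgeR adjusted p = 0.0118) and kept its call with any 1 library left out. Ero1l, an oxidase of the endoplasmic reticulum, was at 150 and 237 CPM against 42.7 and 22.2 and rose 5.97-fold (log2 change 2.58 ± 0.43, edgeR adjusted p = 0.0329), a call lost without WT replicate 2 (2.20) or Rag2-/- replicate 3 (2.18). Of 22 genes, these 2 passed. All WT values were above all Rag2-/- values for 16 and below them for none, against 21.4% and 23.1% of all genes tested. The list's median log2 change was 1.16. Hif1a, the oxygen-regulated transcription factor, was at 875 and 814 CPM against 348 and 355 (edgeR adjusted p = 0.0847), and Bnip3, a mitochondrial target of it, at 104 and 159 against 37 and 22.2 (edgeR adjusted p = 0.0516). Bhlhe40, also on the list, was at 364 and 500 CPM against 431 and 431.

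No glycolysis gene of 24 passed by edgeR over all 6 libraries, while 15 had an unadjusted p under 0.05, all higher in WT. DESeq2 and limma-voom each called 9 of them higher and the fit of the ISG+ DC libraries alone 10. All WT values were above all Rag2-/- values for 17 of the 24 and below them for 2, against 21.4% and 23.1% of all genes tested. The list's median log2 change was 0.89. Pgk1, which makes the first ATP of the pathway, was at 515 and 657 CPM against 184 and 295 (edgeR adjusted p = 0.0843). Hk3, a hexokinase of myeloid cells, was at 172 and 193 CPM against 21.8 and 56.3 (edgeR adjusted p = 0.07), and Slc2a1, the glucose transporter GLUT1, at 191 and 310 against 88.8 and 97.1 (edgeR adjusted p = 0.137). Of 60 subunit genes of oxidative phosphorylation none passed by edgeR, DESeq2 or limma-voom, and the median log2 change was 0.08. An unadjusted p under 0.05 was found for 2 of the 60, against 1307 of all 13223 genes tested. In the list of citrate cycle and itaconate genes none of 27 passed by edgeR (3 at an unadjusted p under 0.05, and 2 each by DESeq2 and limma-voom). Its most changed member by p was Irg1, which makes the antimicrobial metabolite itaconate, at 92.2 and 124 CPM against 1.89 and 4.81 (log2 change 5.01, edgeR adjusted p = 0.0516).

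Lysosomal and matrix genes were mostly on the higher side. Ctsl, the protease cathepsin L, was at 447 and 638 CPM in WT and at 108 and 103 CPM in Rag2-/- ISG+ DC and rose 5.13-fold (log2 change 2.36 ± 0.37, edgeR adjusted p = 0.0271), a call lost without either Rag2-/- ISG+ DC library (2.39 and 2.33). It was the 1 of 47 lysosomal genes that passed. Of the 47, 32 had all WT values above all Rag2-/- values and 2 the reverse, against 21.4% and 23.1% of all genes tested. The list's median was 0.52, and 8 rose with the ISG+ DC libraries alone. Cathepsins D and B (Ctsd and Ctsb) had log2 changes of 1.54 and 1.32 (edgeR adjusted p = 0.0557 and 0.0673). Thbs1, the matrix protein thrombospondin 1, was at 1631 and 2242 CPM against 283 and 471, and Sdc4, a cell-surface proteoglycan, at 347 and 346 against 68.2 and 79.8. Neither gene overlapped between hosts. Thbs1 rose 5.14-fold and Sdc4 4.67-fold (edgeR adjusted p = 0.0196 and 0.0159); without Rag2-/- replicate 2 both lost their calls, at 2.04 and 2.11. They were the 2 of 45 matrix genes and proteases that passed. Of the 45, 29 had all WT values higher and 3 lower, against 21.4% and 23.1% of all genes tested, and the median was 1.26. Coagulation factors X and XIII (F10 and F13a1) were at 348 and 420 against 59 and 58 CPM and at 293 and 336 against 75.8 and 127 (edgeR adjusted p = 0.0516 for both). The ISG+ DC libraries alone gave 14 rises and 1 fall in this list.

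Pla2g7, which inactivates platelet-activating factor, was the 1 of 27 eicosanoid and related lipid mediator genes that passed. It was at 680 and 844 CPM in WT and at 59.5 and 144 CPM in Rag2-/- ISG+ DC, without overlap, and at 22.2 and 10.3 CPM in CD103+ DC1. The rise was 7.47-fold (log2 change 2.90 ± 0.46, edgeR adjusted p = 0.0279). Without Rag2-/- replicate 2 it was 2.40 and lost its call, and without Rag2-/- replicate 3 it was 3.68. Ptgs2, which encodes the prostaglandin enzyme COX-2, was at 198 and 190 CPM against 29.2 and 55.3 (edgeR adjusted p = 0.25), and the list's median was 1.29.

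Receptors for growth factors moved in both directions. Flt3, the receptor that sustains DC, was at 15.8 and 32.4 CPM in WT and at 145 and 91.3 CPM in Rag2-/- ISG+ DC, under 490 and 330 in CD103+ DC1. The WT libraries were lowest, and Flt3 fell by 2.29 ± 0.41 on the log2 scale (edgeR adjusted p = 0.0411). The call was lost without WT replicate 1 (-1.87) or Rag2-/- replicate 2 (-1.92), and the value was -2.91 without WT replicate 2. Zbtb46, a transcription factor of conventional DC, was at 32.2 and 52.3 CPM against 157 and 111 (log2 change -1.66, edgeR adjusted p = 0.0534). Il2ra, the interleukin 2 receptor alpha chain CD25, was at 18.6 and 11.9 CPM in WT and at 83.7 and 115 CPM in Rag2-/- ISG+ DC. Here WT ISG+ DC were near CD103+ DC1, at 17 and 11.5 CPM. Il2ra fell by 2.70 ± 0.48 (edgeR adjusted p = 0.0399), a call lost without WT replicate 2 (-2.42), Rag2-/- replicate 2 (-2.91) or Rag2-/- replicate 3 (-2.46). Csf3r, the receptor for G-CSF, was at 126 and 134 CPM against 22.5 and 12.3 and rose 7.46-fold (log2 change 2.90 ± 0.49, edgeR adjusted p = 0.035), a call lost without Rag2-/- replicate 2 (3.40) or replicate 3 (2.53). Csf3r is also a neutrophil gene. S100a8 was at 0 in all 6 libraries, while Mmp8, a neutrophil collagenase, was at 5.72 and 18.3 CPM in WT against 0.126 and 0 (edgeR adjusted p = 0.252); the part of neutrophil RNA in the Csf3r value was not tested. Of 27 genes of this cytokine and growth factor list, 1 rose and 2 fell (median 0.18). Csf1r, the receptor for M-CSF, had a log2 change of 1.16 (edgeR adjusted p = 0.0821).

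Cxcl9, a ligand that draws activated T cells and is induced by interferon-gamma, was at 272 and 194 CPM in WT and at 23.3 and 34.3 CPM in Rag2-/- ISG+ DC. CD103+ DC1 were in between, at 89.6 and 184 CPM. Cxcl9 rose 8.1-fold (log2 change 3.02 ± 0.42, edgeR adjusted p = 0.0159), a call lost without Rag2-/- replicate 2 (2.76), and was the 1 of 18 chemokines that passed. The chemokine list's median was -0.39, with 5 of the 18 genes apart in each direction, against 21.4% higher and 23.1% lower of all genes tested. In the list of IL-1, TNF and neutrophil attractants, Vegfa was the 1 of 25 to pass, while 8 rose with the ISG+ DC libraries alone. Cxcl3, an attractant of neutrophils, was at 37.3 and 64.5 CPM against 1.32 and 3.21, and Il1rn, the inhibitor of IL-1 signaling, at 384 and 372 against 57 and 95.8 (edgeR adjusted p = 0.0516 for both).

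Among surface receptors no gene passed by edgeR in the lists of Fc and C-type lectin receptors (28 tested, 11 at an unadjusted p under 0.05, 4 by DESeq2 and 8 by limma-voom), scavenger and efferocytosis receptors (33, 10, 3 and 5), integrins and adhesion (28, 9, 3 and 1) or chemoattractant receptors (22, 2, 1 and 1). The lectins Clec4d and Clec4e, which sense microbial glycolipids and dying cells, were at 86 and 117 against 3.78 and 4.89 CPM and at 87.3 and 89.7 against 15.2 and 25.4 (edgeR adjusted p = 0.0516 and 0.0818). All WT values were above all Rag2-/- values for 15 of the 28 Fc and lectin receptors and 20 of the 33 scavenger receptors, and below them for 7 and 4. The shares over all genes tested were 21.4% above and 23.1% below. For the counts at an unadjusted p under 0.05, by DESeq2 and by limma-voom, all 13223 genes gave 1307, 545 and 324.

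Transcription factors and feedback genes gave 3 rises. Cebpb, which encodes C/EBPβ, a regulator of inflammatory and emergency myeloid programs, was at 552 and 549 CPM in WT and at 85.8 and 121 CPM in Rag2-/- ISG+ DC. It rose 5.33-fold (log2 change 2.41 ± 0.35, edgeR adjusted p = 0.0194) and was the 1 of 33 lineage transcription factors, and the 1 of 30 stress response genes, that passed. Of the 30 stress genes, 6 had all WT values above all Rag2-/- values and 13 the reverse (median -0.17). For the 33 transcription factors these counts were 16 and 8 (median 0.32). All genes tested had 21.4% above and 23.1% below. Tnfaip2, a target of TNF and NF-κB, was at 211 and 326 CPM against 21.8 and 14.8 and rose 14.7-fold (log2 change 3.87 ± 0.48, edgeR adjusted p = 0.0134), the 1 of 30 NF-κB feedback genes. Plk2, a kinase on the p53 list, was at 131 and 155 CPM against 35.7 and 23.8 and rose 4.8-fold (log2 change 2.26 ± 0.38, edgeR adjusted p = 0.035). Cebpb lost its call without Rag2-/- replicate 2 (2.19), and Plk2 without that library (2.58), without WT replicate 2 (2.13) or without Rag2-/- replicate 3. The core NF-κB gene Relb was at 63.6 and 44.1 CPM in WT and 116 and 103 in Rag2-/- ISG+ DC (edgeR adjusted p = 0.356). Among phosphatases and cytokine feedback genes none of 25 passed by edgeR (5 at an unadjusted p under 0.05, 3 by DESeq2 and 3 by limma-voom); Socs3 was at 335 and 349 CPM against 150 and 97.2 (edgeR adjusted p = 0.0587).

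Genes of the immediate-early and heat-shock response, which dissociation of a tissue can induce, are given here beside these results. Fos was at 1372 and 1510 CPM in WT against 340 and 454, and Fosb at 459 and 445 against 111 and 141. They were the 2 of 25 that passed, 3.63-fold and 3.58-fold higher in WT (edgeR adjusted p = 0.0159 for both), with calls lost without Rag2-/- replicate 2 (1.67 and 1.68). Of the 25, 12 had all WT values above all Rag2-/- values and 4 the reverse, against 21.4% and 23.1% of all genes tested. The list's median log2 change was 0.60, and 6 genes were higher and 1 lower with the ISG+ DC libraries alone. The sum over the 25 genes was 11487 and 12830 CPM in WT and 9345 and 10266 in Rag2-/- ISG+ DC. The part of this response in the other results was not tested.

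Few antigen presentation genes passed by any tool. Of 24 MHC class I and proteasome genes none passed by edgeR, DESeq2 or limma-voom, and 1 had an unadjusted p under 0.05. B2m was at 1610 and 1491 CPM against 1131 and 1277 (edgeR adjusted p = 0.677). Of 14 class II genes none passed by edgeR (3 at an unadjusted p under 0.05, 3 by DESeq2 and 2 by limma-voom), and the list median was near 0, with 7 log2 changes above 0 and 7 below. In the list of DC maturation and migration genes none of 27 passed by edgeR (5 at an unadjusted p under 0.05, 1 by DESeq2 and 2 by limma-voom). Fscn1, the actin bundler of mature DC, was at 31.1 and 51.8 CPM in WT and 162 and 99.5 in Rag2-/- ISG+ DC (edgeR adjusted p = 0.291). In 4 more lists none passed by edgeR: amino acid transport (23 tested, 8 at an unadjusted p under 0.05, 2 by DESeq2 and 3 by limma-voom), tryptophan, NAD and purine metabolism (29, 6, 2 and 2), the pentose phosphate and one-carbon pathways (17, 6, 1 and 0) and the NADPH oxidase (8, 2, 0 and 1). Over all 13223 genes tested, 1307 had an unadjusted p under 0.05, 545 passed by DESeq2 and 324 by limma-voom. A p that misses the threshold does not show that the groups are alike.

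**Figure D5:**
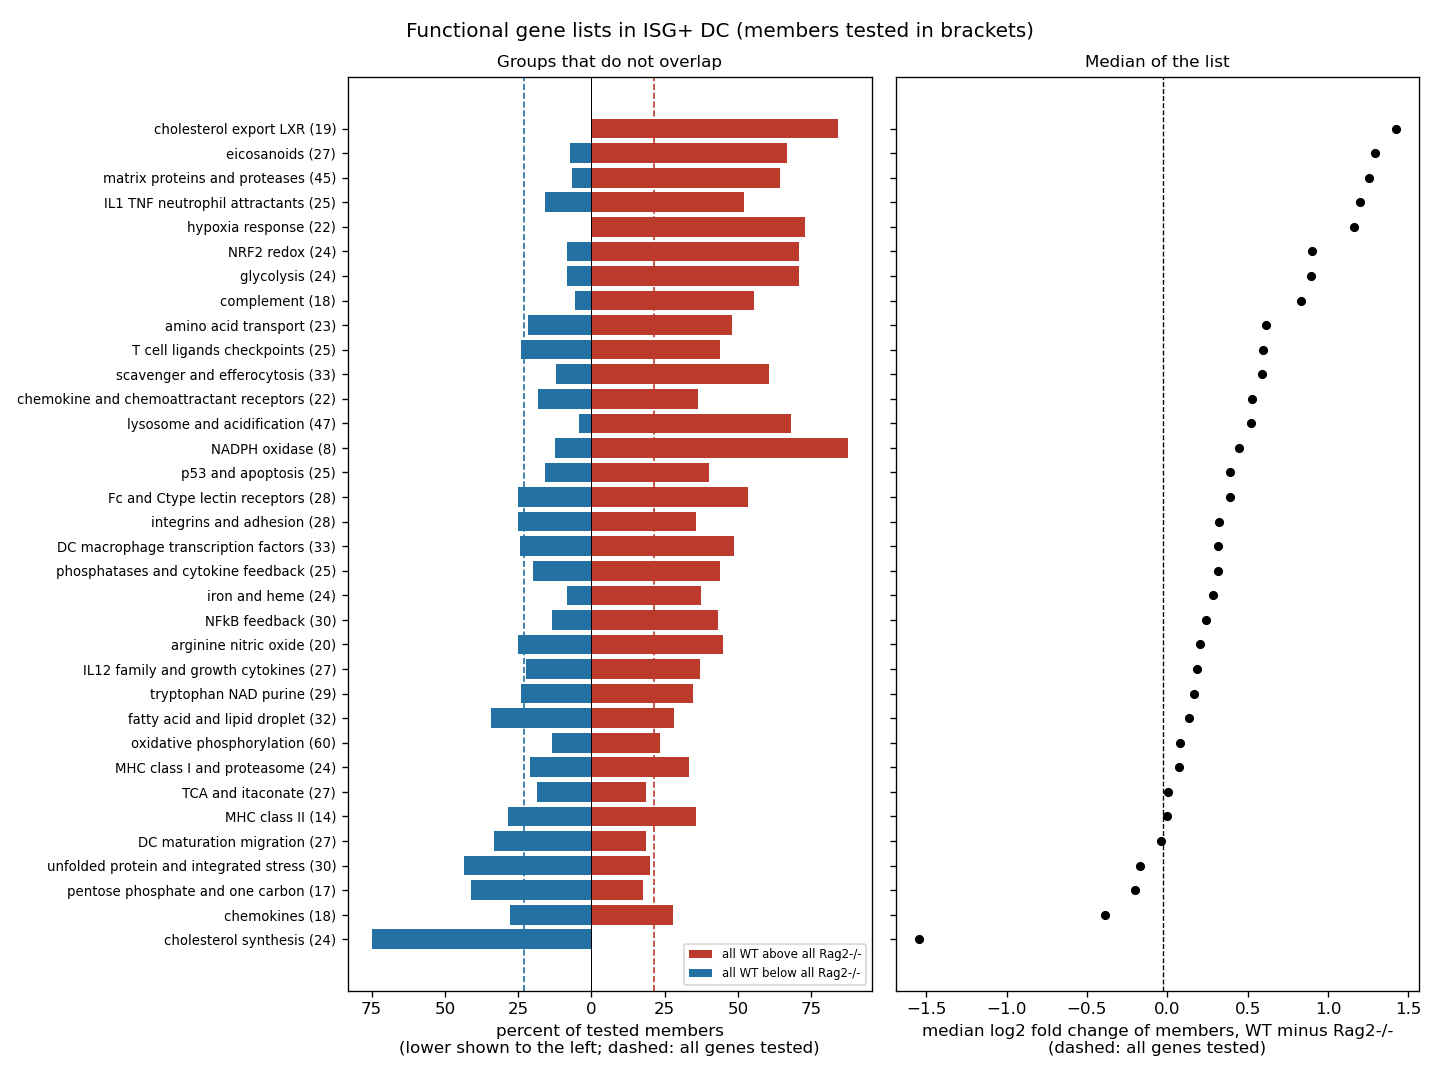
For 34 functional gene lists, the percent of tested members whose WT values all lay above (right) or below (left) all Rag2-/- values, and the median log2 fold change of the members; dashed lines give all genes tested (21.4% above, 23.1% below, median -0.03). Cholesterol export had the highest median of the 34 lists, 1.42, with 16 of 19 members above, and cholesterol synthesis the lowest, -1.54, with 18 of 24 below. The NADPH oxidase had a larger percent above, with 7 of 8 members, and a median of 0.44.

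The remaining genes with the greatest changes had other roles. Ninj1, which ruptures the membrane of dying cells, was at 97.4 and 93.5 CPM in WT against 5.92 and 2.04 in Rag2-/- ISG+ DC, a 23.9-fold rise (log2 change 4.58 ± 0.62, edgeR adjusted p = 0.0159), or 5.54 without Rag2-/- replicate 2. Myoz3, a calcineurin-binding protein known from muscle, was at 367 and 186 CPM against 39.8 and 24.9 and rose 8.53-fold (edgeR adjusted p = 0.0323), a call lost without Rag2-/- replicate 2 (3.47) or replicate 3 (2.79). Eif3j, a translation initiation subunit, was at 15 and 73.7 CPM in WT and at 0 in the other 4 libraries, at least 437-fold higher in the mean over a limit of 3 counts for the group. It lost its call without WT replicate 2 or Rag2-/- replicate 2 and by DESeq2 and limma-voom. Mouse Eif3j has near-identical copies, so its value is uncertain.

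Among the greatest falls, Brca1, which repairs broken DNA in dividing cells, was at 5.18 and 1.60 CPM in WT and at 54.1 and 49.8 CPM in Rag2-/- ISG+ DC. It fell by 3.93 ± 0.59 on the log2 scale (edgeR adjusted p = 0.02), with -5.02 without WT replicate 1 and -3.33 without WT replicate 2; limma-voom gave no call (-4.11, adjusted p = 0.061). The histone genes Hist1h2ad, Hist1h2ai, Hist1h2bg and Hist1h1b, made for new chromatin, also fell: Hist1h2bg was at 26.8 and 20.7 CPM against 99.2 and 95.7 and Hist1h1b at 22.1 and 21.5 against 65.6 and 111. Their reads are shared among near-identical copies, so single values are uncertain. Hist1h2ad was at 0 in both WT libraries against 47.3 and 16.7 CPM, at least 226-fold lower in the mean (no call by limma-voom), and Hist1h2ai at 1.07 and 0 against 68 and 81.6. Hist1h2bg and Hist1h1b fell by 2.04 and 2.02; the first lost its call without WT replicate 2 (-1.87), Rag2-/- replicate 2 (-2.01) or replicate 3 (-2.06), and the second without any 1 of the 4 ISG+ DC libraries (-1.59 to -2.35). Flnc, an actin cross-linker, was at 7.78 and 8.58 CPM against 93.7 and 38.8 and fell by 3.02 (edgeR adjusted p = 0.0393), with -2.25 and no call when Rag2-/- replicate 2 was left out, and no call by limma-voom. Mid1, a ubiquitin ligase of microtubules, was at 22.9 and 11.4 CPM against 141 and 94.2 and fell by 2.78 (edgeR adjusted p = 0.0393). Mid1 was at -3.37 without WT replicate 1, and lost its call without WT replicate 2 (-2.37) or Rag2-/- replicate 2 (-2.46).

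Interferon and cell cycle genes moved beside these functions. Of 53 type I interferon-stimulated genes 6 fell and none rose in WT hosts (median -0.82). Of 34 interferon-gamma genes 6 rose and none fell (median 0.50), and of 35 proliferation genes 4 fell and none rose (median -1.53). Among all genes tested 0.287% rose and 0.265% fell (median -0.03). All WT values lay below all Rag2-/- values for 47 of the 53 and 29 of the 35, and above them for none. For the interferon-gamma genes 18 lay above and 3 below. All genes tested had 21.4% above and 23.1% below. The interferon-gamma list holds Nos2, Cd274 and Cxcl9, which were described above.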

How the data were processed

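Tumor DC sorted from pooled mouse tumors were profiled by bulk RNA sequencing; per the labels' protocols the kit was one for stranded total RNA at low input, while the molecule label names polyA RNA. The authors deposited RSEM estimated counts (expected counts) per gene symbol, not normalized, for 23224 genes and 6 libraries; Bowtie 1.2.3, RSEM 1.3.1 and build mm9 are named, without their roles, per the submitters' processing notes. Annotation, strand setting and filters have no statement in these sources, so overlapping genes and near-identical copies cannot be separated. Of the values 16.1% are not whole.

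Counts were rounded and fitted in R 4.3.3 with edgeR 4.0.16 (filterByExpr, TMM, glmQLFit, glmQLFTest, two-sided, Benjamini-Hochberg adjustment over 13223 genes, threshold 0.05). One fit over all 6 libraries shared the spread among 3 groups (3 residual degrees of freedom, 7.34 from the prior, biological coefficient of variation 0.703). CPM use TMM-scaled totals. The SE of a log2 fold change comes from the F statistic. The limit for a group at 0 is 3 counts, or 0.141 CPM in WT and 0.101 CPM in Rag2-/- ISG+ DC; it covers counting error only. The fit was tested on simulated data.

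The samples, members and 49 gene lists (1318 of 1329 entries were matched) were chosen with earlier results of these data known. Named genes were Arg1, Nos2, C3, Cd274, Cyp51, Rag1 and Rag2, and the 12 greatest rises and 12 greatest falls among passing genes whose mean over ISG+ DC reached 10 CPM, with groups apart, no predicted name and no place in the interferon, macrophage or proliferation lists. Up to 4 members of each functional list with the smallest p were added. Other genes were named after their values were seen: the marker genes of other cell types, Ass1, Asl, Odc1, C1qc, Cfp, the overlapping genes of cholesterol synthesis, Abcg1, Lpcat3, Tfrc, Slc2a1, Bhlhe40, Fos, Fosb and those listed among the other observations. Alternatives were other scalings (DESeq2 1.42.0 size factors, upper quartile), filters, tests (DESeq2, limma 3.58.1 voom), the ISG+ DC libraries alone, each library left out and, added later, the replicate number as a block. Values of some single genes are not reported here. The p-values weigh a difference against the spread between pooled libraries, not between single mice. That spread was estimated over all 6 libraries, CD103+ DC1 among them, with a prior shared across genes.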

Additional observations from a re-analysis of the deposited data

How the results depend on the processing

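The number of genes passing was 71 (39 higher and 32 lower) with DESeq2 size factors, 68 with upper-quartile factors and 73 with a minimum mean of 10 CPM. It was 545 by DESeq2 (264 higher and 281 lower), 324 by limma-voom (227 and 97), 555 without a filter on low counts (268 and 287) and 444 with the ISG+ DC libraries alone (275 and 169). With 1 library left out it ran from 27 (12 higher and 15 lower, without Rag2-/- ISG+ DC replicate 2) to 801 (414 higher and 387 lower, with CD103+ DC1 replicate 3 left out), and leaving out the other library of that group gave 702. A lone library left in a group is assumed to vary like the other groups. The median log2 change over all genes lay between -0.15 (with the replicate number as a block) and 0.02 in these fits. Of 175 named or passing genes, H2-T22 alone changed direction, from 0.80 to -0.061 without WT replicate 1 (1.33 without WT replicate 2). Of the genes described, limma-voom lost the calls of Eif3j, Hist1h2ad, Brca1, Flnc, Bicd1, Nek2 and Sdk1, DESeq2 that of Eif3j, and upper-quartile factors those of Aif1 and Arid5b. A fit with the replicate number as a block, chosen after seeing the data, called 258 genes (91 higher and 167 lower), 59 of the 73 among them, and lost Hist1h1b, Arid5b, Fnip2, Hivep2 and Myof of the genes described. It leaves 1 residual degree of freedom, the 2 groups compared share 1 replicate number, and the labels do not say what a number marks; deviations of same-numbered Rag2-/- libraries had a correlation of -0.00239 across genes. With 2 libraries a group, 73 calls rest on a spread shared with CD103+ DC1, and low genes carry wide errors. No outlier check was made, since groups of 2 allow none.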

Other observations

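Of the 73 genes that passed, several lie in none of the functional lists; they were chosen after their values were seen. Anpep, the membrane aminopeptidase CD13, was at 420 and 430 CPM in WT and at 75.9 and 69.9 CPM in Rag2-/- ISG+ DC, 5.83-fold higher (edgeR adjusted p = 0.00567), and kept its call with any 1 library left out. Its level in CD103+ DC1, 455 and 332 CPM, was that of WT ISG+ DC. Fnip2, a partner of folliculin in nutrient signaling, gave the same order: 216 and 278 CPM in WT ISG+ DC, 76.5 and 76.6 in Rag2-/- ISG+ DC and 277 and 208 in CD103+ DC1. Sepp1, the selenium carrier selenoprotein P, was at 480 and 332 CPM against 55.5 and 102 (5.17-fold higher), and Myof, a membrane repair protein, at 613 and 821 against 244 and 287 (2.7-fold higher). Aif1, which encodes IBA1, was at 134 and 146 CPM against 27.6 and 29.4, and Arid5b, a chromatin regulator, at 185 and 168 against 53.3 and 55.4.

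On the lower side, Hivep2, a zinc finger factor, was at 197 and 136 CPM against 471 and 468, and Ctnnd2, delta-catenin, at 61.7 and 56.1 against 229 and 233. Ctnnd2 was at 23.9 and 16.1 CPM in CD103+ DC1, so Rag2-/- ISG+ DC held the highest level of the 3 groups. Nek2, a centrosome kinase, Bicd1, a dynein adaptor, and Sdk1, an adhesion molecule, had no count in either WT library and between 9.55 and 16.3 CPM in Rag2-/- ISG+ DC, at least 89.9-fold, 81.7-fold and 91.4-fold lower in the mean; limma-voom called none of the 3, and upper-quartile factors lost the calls of Aif1 and Arid5b. Without Rag2-/- replicate 2 the calls of Fnip2 (1.69), Sepp1 (1.99), Myof (1.32), Aif1 (2.25), Arid5b (1.67), Hivep2 (-1.49) and Ctnnd2 (-1.99) were lost, as was that of Sdk1. Fnip2, Myof, Arid5b, Hivep2 and Ctnnd2 also lost theirs without WT replicate 2 (1.49 for Fnip2, 1.76 for Arid5b, -1.26 for Hivep2 and -1.91 for Ctnnd2) or Rag2-/- replicate 3 (1.69, 1.55, 1.72, -1.50 and -1.96), and so did Aif1 without Rag2-/- replicate 3 (2.34) and Arid5b without WT replicate 1 (1.62).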
